A study of Mus musculus with 10 samples.

Results

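The matrix metalloproteases (MMPs), the ADAMTS proteases and the tissue inhibitors of metalloproteases (TIMPs) were examined in bulk RNA-seq libraries of the mouse anterior fontanelle (AF), the fibrous membrane at the apex of the skull between the frontal and parietal bones. Members were all protein-coding genes whose symbol is *Mmp*, *Adamts* or *Timp* followed by a number (with a or b after an *Mmp* number). Of the 23080 genes listed, 38 met this rule: 15 *Mmp*, 19 *Adamts* and 4 *Timp* genes. The rule itself uses names and no measured value. There were 5 libraries labelled wild type (control-labelled) and 5 labelled *Wnt1-Cre; Fgfr2fl/fl* (mutant-labelled), all from embryos at E18.5. Wnt1-Cre is active in the neural crest and its descendants, so floxed *Fgfr2* is recombined in cells of that origin, while mesoderm-derived and blood cells of the tissue keep the gene. The labels do not say whether controls carried the Cre or a floxed allele. The excised tissue held the suture connective tissue and bone without skin and brain, and the comparison asks which transcripts differ at the AF when *Fgfr2* is deleted in neural crest-derived cells.

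MMPs and ADAMTS proteases are zinc-dependent enzymes that cut the extracellular matrix. They are made as inactive proenzymes, and most need a propeptide to be removed before they can act. MMPs cut collagens, gelatin and many other matrix proteins. ADAMTS proteases carry thrombospondin repeats that bind them to the matrix, and they trim procollagens, cut the large proteoglycans aggrecan and versican, or act around fibrillin microfibrils. TIMPs block MMPs, and *Timp3* also inhibits several ADAMTS proteases. In developing skull bone, osteoclasts are a known source of MMP9 and osteoblasts of MMP13, while MMP14 at the cell surface activates pro-MMP2 with the help of TIMP2.

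The bases that encode the active centres are shown first because they encode a motif common to the members, a zinc-binding motif in the 34 proteases and a pair of cysteines in the 4 inhibitors. The bases themselves differ between members. Sequences are from GENCODE M21 transcripts on GRCm38, 5′ to 3′ on the coding strand. Each protease coding sequence held 1 stretch of 11 codons (33 bases) in which codons 1, 5 and 11 encode histidine and codon 2 encodes glutamic acid, the histidines being those that hold the catalytic zinc. This stretch was found in 34 of 34 proteases. The capitals mark the 3 histidine codons. The genes shown are the 4 *Mmp* genes and the *Adamts* gene with the highest levels, and the other proteases with an unadjusted p under 0.05 between the groups.
*Mmp9*: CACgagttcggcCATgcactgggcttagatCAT
*Mmp2*: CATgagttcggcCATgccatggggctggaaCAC
*Mmp14*: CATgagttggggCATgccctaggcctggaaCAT
*Mmp13*: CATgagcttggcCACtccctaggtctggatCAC
*Mmp8*: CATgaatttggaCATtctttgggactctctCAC
*Adamts2*: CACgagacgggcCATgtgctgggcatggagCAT
*Adamts7*: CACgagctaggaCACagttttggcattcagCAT
*Adamts8*: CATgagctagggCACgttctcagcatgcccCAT
*Adamts20*: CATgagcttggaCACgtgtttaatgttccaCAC
In *Mmp9* the stretch lay at chr2:164951133-164951165 in exon 8 of 13, and in *Mmp2* at chr8:92839279-92839311, also in exon 8 of 13. In *Mmp14* it lay at chr14:54437627-54437659, in *Mmp13* at chr9:7276573-7276605 and in *Mmp8* at chr9:7563086-7563118, each time in exon 5 of 10. *Mmp9* and *Mmp2*, the gelatinases, had the same base at 25 of 33 positions, and *Mmp2* and *Mmp14* at 27 of 33.

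The families differed in how this stretch sits in the gene. All 15 *Mmp* genes held it in 1 exon, whereas in all 19 *Adamts* genes it crossed a junction between 2 exons. In *Adamts7* it ran over exons 7 and 8 of 24 (chr9:90179456-90180640, intron included), in *Adamts8* over exons 3 and 4 of 9 (chr9:30952721-30953378) and in *Adamts20* over exons 8 and 9 of 39 (chr15:94353678-94355296, minus strand). The 8th codon encoded glycine in all 15 *Mmp* genes and in 13 *Adamts* genes. It encoded asparagine in 5 *Adamts* genes (*Adamts1*, *Adamts4*, *Adamts9*, *Adamts15* and *Adamts20*) and serine in *Adamts8*.

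In the TIMPs the mature protein begins with a cysteine that reaches into the active centre of the protease, followed by any residue and a second cysteine. The first 10 codons (30 bases) from that cysteine are shown, with both cysteine codons in capitals.
*Timp1*: TGTagcTGTgccccaccccacccacagaca
*Timp2*: TGCagcTGCtccccggtgcacccgcaacag
*Timp3*: TGCacaTGCtctcccagccatccccaggat
*Timp4*: TGCagcTGTgcgcctgcgcacccccagcag
The stretch was in exon 2 of 6 of *Timp1* (chrX:20871111-20871140) and in exon 1 of 5 of *Timp2* (chr11:118354983-118355012, minus strand), *Timp3* (chr10:86300923-86300952) and *Timp4* (chr6:115251662-115251691, minus strand). *Timp2* and *Timp4* shared the base at 23 of 30 positions, and *Timp1* and *Timp3* at 16 of 30.

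The deposited estimated counts summed to between 20774667 and 28515434 per library, and to between 15317756 and 20480184 without ribosomal RNA genes. The level of total *Fgfr2* transcript went against the genotype label. It was 175.8 to 234.6 CPM (counts scaled to a common library size) with the control label and 273.4 to 356.7 CPM with the mutant label (log2 fold change 0.67, SE 0.090, edgeR adjusted p = 0.0487). A count over the whole gene does not show whether the floxed part is missing, so the groups are called by their labels here. All 8 osteoblast and all 8 osteoclast markers and all 4 markers of fontanelle connective tissue (*Scx*, *Tnmd*, *Mkx*, *Matn4*) were detected. Mutant replicate 2 stood apart in 5 neuronal markers, whose sum was 413.4 CPM there and at most 170.0 CPM in the other 9 libraries. Summed skeletal muscle markers were 667.3 CPM in control replicate 2, 660.4 CPM in mutant replicate 1 and at most 126.4 CPM in the other 8 libraries. Epidermal markers summed to 7 CPM at most.

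No member passed an adjusted p of 0.05 in edgeR's quasi-likelihood test, fitted over all genes. Among the 16267 genes tested, 0.0184% did (3 genes). The test could be run for 35 of the 38 members. *Mmp3*, *Adamts13* and *Adamts19* had too few counts. At an unadjusted p under 0.05 there were 7 of 35 members (20%), against 7.49% of all genes tested. With DESeq2, 0 members passed the adjusted threshold and 8 of the 37 it fitted had an unadjusted p under 0.05, beside 0.413% and 6.34% of all genes. With limma voom these counts were 0 and 5, beside 0.0184% and 7.32%. Without mutant replicate 2, edgeR gave 5 such members, beside 6.79% of all genes.

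Of the 7 members, 4 were higher in mutant-labelled libraries (*Adamts7*, *Adamts8*, *Mmp8*, *Adamts20*; 11.4% of members against 3.68% of all genes) and 3 were lower (*Timp1*, *Mmp13*, *Timp3*; 8.57% against 3.82%). By family they were 2 of 14 MMPs, 3 of 17 ADAMTS proteases and 2 of 4 TIMPs. In 0 of 35 members were the 2 groups free of overlap, against 1.48% of all genes. The median log2 fold change was -0.01 over the 35 members and 0.00 over all genes tested, and single members ran from -0.40 to 0.91. The size of the differences was also like that of other genes, with a median absolute log2 fold change of 0.08 among members and 0.09 among all genes. An absolute log2 fold change of 1 or more was seen in 0 of the 35 tested members and in 237 of the 16267 genes.

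**Figure D1:**
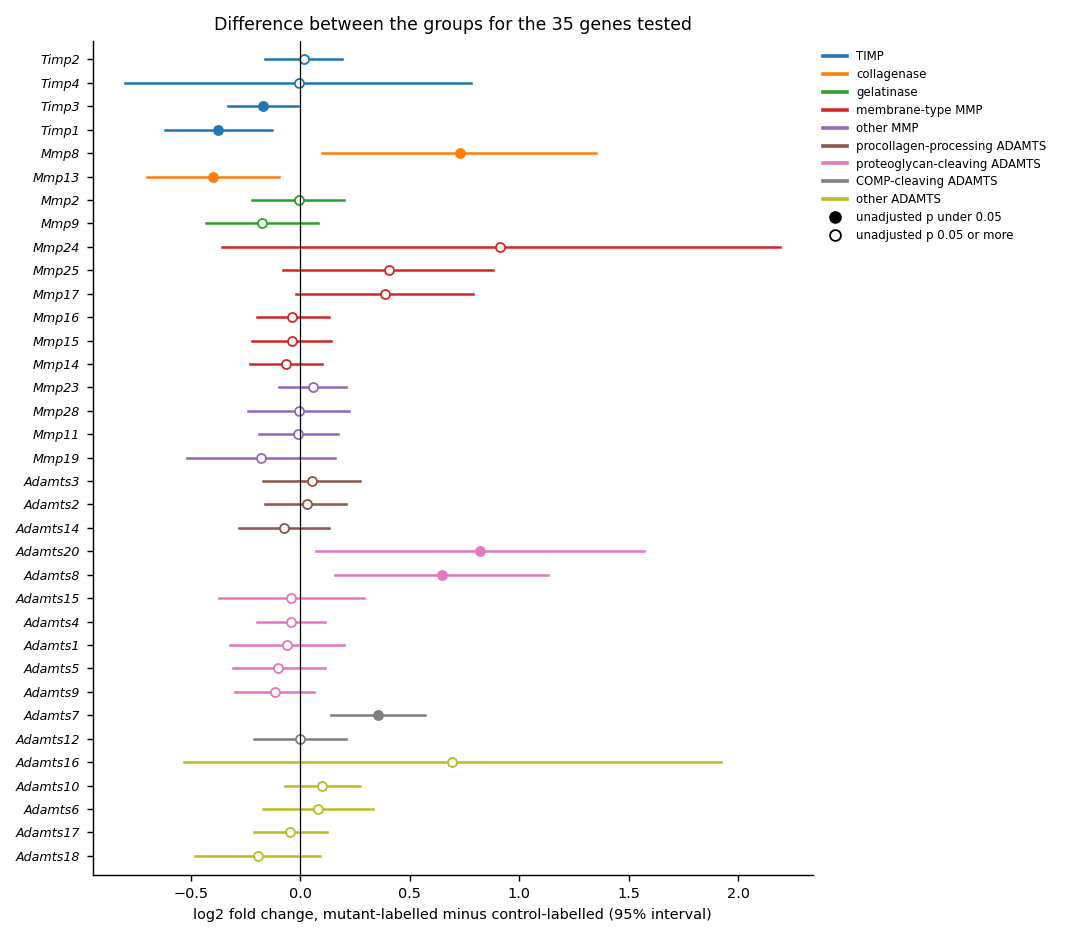
Log2 fold change of each tested member between mutant-labelled and control-labelled libraries (n = 5 each) with its 95% interval from edgeR, grouped by class on the vertical axis. The 7 filled points, with an unadjusted p under 0.05, lie on both sides of 0, and no member passed the adjusted threshold.

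Levels were compared between genes per kilobase of exon, as TMM-normalized CPM divided by the union of exon lengths. *Mmp9*, a gelatinase of osteoclasts, stood first in control-labelled libraries at 461.5 ± 86.3 CPM per kb (SD, n = 5). The other gelatinase, *Mmp2*, followed at 161.3 ± 10.7 CPM per kb, and the ranges of these genes did not overlap. Below them *Timp2* (113.6 ± 8.25), *Mmp13* (109.4 ± 23.8) and *Mmp14* (106.9 ± 4.14) had overlapping ranges, so their order is not set. *Timp1* stood at 77.2 ± 5.21 CPM per kb and *Timp3* at 33.2 ± 3.22 CPM per kb. The highest ADAMTS protease was *Adamts2*, with 28.8 ± 1.4 CPM per kb and a range that overlapped that of *Timp3*. *Adamts12* (13.9), *Adamts10* (11.9), *Adamts14* (10.36) and *Adamts1* (9.91) came next. At the low end were *Timp4* (0.0801), *Mmp3* (0.0588), *Adamts13* (0.0458) and *Adamts19* (0.0195).

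**Figure D2:**
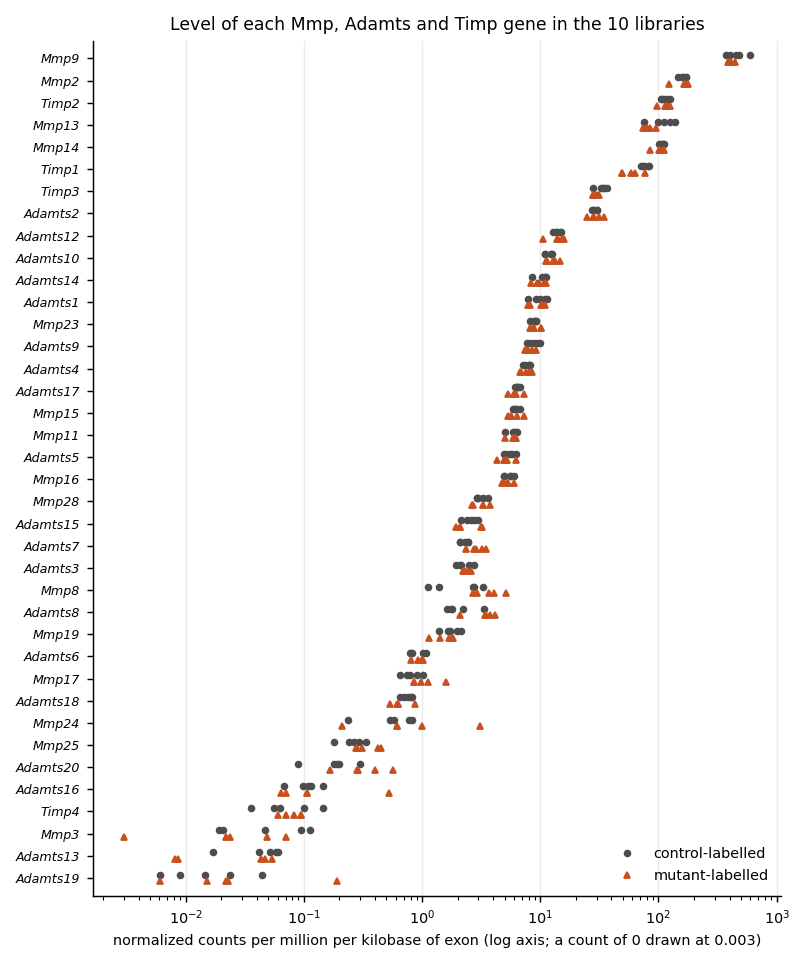
Level of the 38 members in each of the 10 libraries, in normalized CPM per kilobase of exon on a log axis, ordered from high to low mean in control-labelled libraries (circles); triangles are mutant-labelled libraries. *Mmp9* leads at 461.5 CPM per kb in controls, and the groups overlap in every row.

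Few genes carried most of each family's level. *Mmp9* gave 49.8% ± 3.99 of the summed MMP CPM with the control label and 48.7% ± 2.47 with the mutant label. The summed MMP level was 3258 ± 343 CPM against 2977 ± 179 CPM (SD, n = 5 each), with overlapping ranges. Summed ADAMTS levels were 986 ± 43.0 CPM in controls and 988 ± 91.3 CPM in mutants. For the TIMPs the sums were 782 ± 50.6 and 741 ± 58.8 CPM. Per kilobase, there was 3.91 ± 0.484 times as much MMP as TIMP transcript in controls and 3.90 ± 0.195 times as much in mutants. Within the TIMPs, *Timp2* was 48.6% to 53.5% of the level per kilobase in control-labelled libraries and 53.6% to 60.0% in mutant-labelled ones. These ranges meet without overlapping, but the shares of summed CPM overlapped. There *Timp2* had 487.5 of 835.4 CPM in control replicate 1 and 377.5 of 649.9 CPM in mutant replicate 2. *Timp2* itself had a log2 fold change of 0.01, against -0.38 for *Timp1* and -0.17 for *Timp3*. No background for such a share was computed.

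Among the inhibitors, *Timp1* and *Timp3* had lower means in mutant-labelled libraries. *Timp1* (chrX:20870166-20874735) encodes a secreted inhibitor that binds pro-MMP9 and is made by osteoblasts and many other cells. It had 65.6, 63.2, 72.8, 73.9 and 67.5 CPM in control-labelled replicates 1 to 5, and 44.1, 43.6, 56.3, 51.8 and 68.4 CPM in the mutant-labelled ones. Thus 4 of 5 mutant-labelled libraries lay below all controls, and replicate 5 lay among them. Its log2 fold change was -0.38 (SE 0.113, 95% interval -0.62 to -0.13), with an unadjusted edgeR p of 0.00633, an adjusted p of 0.454 and a two-sided exact permutation p of 0.0317. The unadjusted p was under 0.05 without any 1 of the 10 libraries.

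*Timp3* (chr10:86300372-86349506) encodes a TIMP bound to the matrix. Control-labelled libraries held 282.0, 299.7, 229.5, 263.6 and 276.4 CPM, and mutant-labelled libraries held 249.5, 228.5, 228.1, 241.2 and 255.0 CPM. All 5 mutant-labelled values were under the control median, yet only 2 were under the control minimum, which replicate 3 set. The estimate was a log2 fold change of -0.17 (SE 0.072, 95% interval -0.33 to -0.01, unadjusted edgeR p = 0.0389, adjusted p = 0.653, exact permutation p = 0.0556). The unadjusted p stayed under 0.05 when control replicate 3 (0.00535) or mutant replicate 5 (0.0347) was left out. It rose to 0.0918, 0.118, 0.0514 and 0.0785 without control replicates 1, 2, 4 and 5, and to 0.0525, 0.081, 0.0971 and 0.0651 without mutant replicates 1, 2, 3 and 4. Since 21.3% of its exon bases lie opposite exons of *Syn3* and the counting is not stated to use strand, reads of the 2 genes may be mixed.

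*Timp2* (chr11:118301069-118355740), the cofactor of pro-MMP2 activation, had an estimate near 0. There were 487.5, 461.2, 406.9, 436.6 and 421.1 CPM in control-labelled and 469.2, 377.5, 455.8, 444.1 and 488.2 CPM in mutant-labelled libraries. Its log2 fold change was 0.01 with a 95% interval of -0.16 to 0.19, so a difference beyond 0.19 log2 units lies outside the interval. *Timp4* (chr6:115241892-115252205) was barely measured. It had 0.371, 0.857, 0.595, 0.327 and 0.211 CPM in controls and 0.418, 0.358, 0.556, 0.553 and 0.486 CPM in mutants, on 5 to 25 counts per library. Its 95% interval of -0.80 to 0.78 holds differences of that size in either direction. Over the 4 TIMPs the median log2 fold change was -0.09, with 1 estimate higher and 3 lower.

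**Figure D3:**
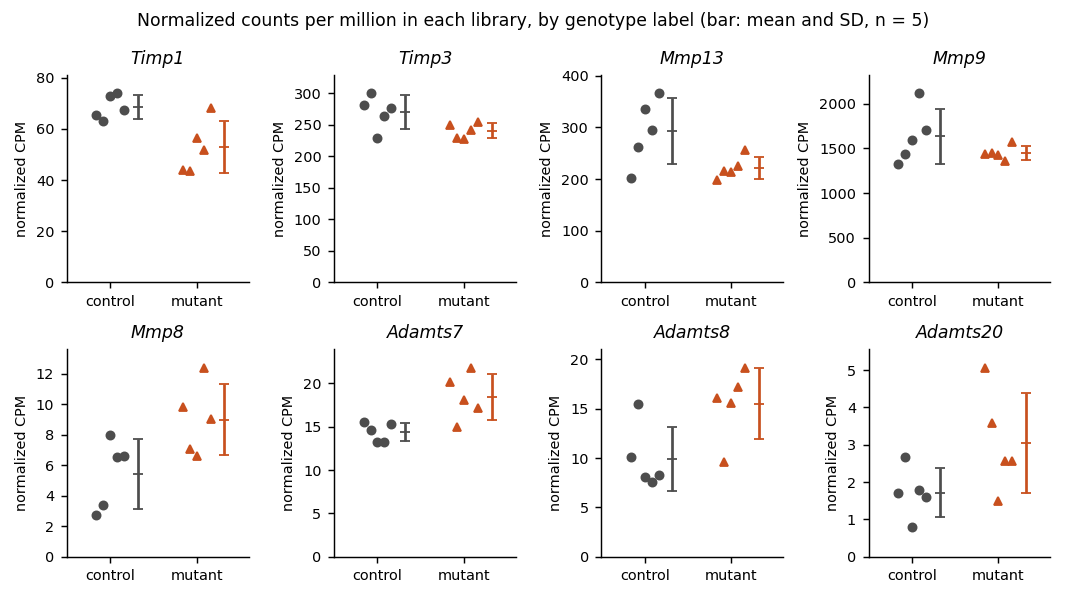
Normalized CPM of 8 members in each library, control-labelled (circles) and mutant-labelled (triangles), with mean and SD beside the points (n = 5 each). For *Timp1*, *Adamts7* and *Adamts8*, 4 of 5 mutant-labelled libraries lie beyond the control range, and in all 8 panels the groups overlap.

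The collagenases gave estimates of opposite sign. *Mmp13* and *Mmp8* lie in 1 cluster on chromosome 9 (chr9:7272514-7283331 and chr9:7558456-7568485), both on the plus strand. *Mmp13*, collagenase 3, cuts fibrillar collagen in forming bone and cartilage. Its levels were 202.7, 262.5, 336.0, 295.3 and 365.8 CPM in control-labelled libraries and 198.0, 215.2, 214.1, 225.2 and 256.9 CPM in mutant-labelled libraries. Control replicate 1 was as low as the mutant-labelled libraries, while the other 4 controls were above all of them. This gave a log2 fold change of -0.40 (SE 0.138, 95% interval -0.70 to -0.10, unadjusted edgeR p = 0.0143, adjusted p = 0.557, exact permutation p = 0.0635).

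Markers of bone cells are given beside *Mmp13* and *Timp1*; none of them passed the adjusted threshold. All 8 osteoblast markers had lower estimates in mutant-labelled libraries (median log2 fold change -0.31), 5 of them at an unadjusted p under 0.05. Their mean log2 CPM was 9.25 to 9.56 in controls and 8.88 to 9.28 in mutants, and *Ibsp*, bone sialoprotein, had 1704 ± 185.4 against 1137 ± 266.4 CPM. Of the osteoclast markers 7 of 8 had lower estimates (median -0.15), 1 at an unadjusted p under 0.05, and their sum was 1078 to 1697 CPM against 1225 to 1444 CPM. None of these markers was at 0. In bulk tissue fewer cells of a type and less RNA per cell cannot be told apart, and the part of these markers in the *Mmp13* and *Timp1* differences was not tested.

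Across the 10 libraries *Mmp13* followed the osteoclast score (mean log2 CPM of its 8 markers) with Pearson's r = 0.87 (permutation p = 0.00098, adjusted 0.00229) and Spearman's rho = 0.89 (permutation p = 0.00108). Without control replicates 1 and 4, which lay farthest from the median score, r was 0.95, and after subtracting group means it was 0.87. This relation was chosen after the values were seen. With the osteoblast score, set in the plan, the values were weaker at r = 0.64 (permutation p = 0.0484, adjusted 0.0678), rho = 0.59 (p = 0.0804), 0.61 without control replicate 4 and mutant replicate 2, and 0.29 after subtracting group means. In all, 7 relations were computed and p-values were adjusted over them.

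*Mmp8*, collagenase 2, is stored in the granules of neutrophils. Its levels were low, at 2.71, 3.36, 7.95, 6.54 and 6.63 CPM in control-labelled and 9.80, 7.08, 6.59, 12.4 and 9.01 CPM in mutant-labelled libraries, on 73 to 291 counts. Control replicates 1 and 2 were the lowest, and 3 of 5 mutant-labelled libraries were above all controls. The log2 fold change was 0.73 (SE 0.286, 95% interval 0.10 to 1.35, unadjusted edgeR p = 0.0267, adjusted p = 0.634, exact permutation p = 0.0476). The unadjusted p was 0.061 without control replicate 2 and 0.0732 without mutant replicate 4.

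The 6 neutrophil markers were measured beside it, and none passed the adjusted threshold. All 6 had higher estimates in mutant-labelled libraries (median log2 fold change 0.86), 3 of them (*S100a8*, *S100a9*, *Ngp*) at an unadjusted p under 0.05, and their sum was 28.2 to 77.3 CPM in controls and 83.2 to 144.9 CPM in mutants. *S100a8* and *S100a9* made up most of it, and *Elane*, neutrophil elastase, was between 0.0929 and 2 CPM. *Mmp8* followed the neutrophil score with r = 0.80 (permutation p = 0.00609, adjusted 0.0107) and rho = 0.72 (p = 0.0239). Without control replicate 1 and mutant replicate 4, r fell to 0.38, so the relation rests on these libraries; it was 0.65 after subtracting group means. This pair was also chosen after the values were seen, and the part of the neutrophil markers in the difference was not tested.

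The gelatinases were close between groups. *Mmp9* (chr2:164940780-164955850) had 1326, 1432, 1590, 2114 and 1705 CPM in control-labelled and 1434, 1452, 1423, 1359 and 1570 CPM in mutant-labelled libraries. The mutant-labelled values were all under the control median but inside the control range, and they spread less (coefficient of variation 5.33% against 18.7%). The estimate was -0.17 on the log2 scale (SE 0.115, 95% interval -0.43 to 0.08, unadjusted edgeR p = 0.158, adjusted p = 0.749, exact permutation p = 0.262). Without control replicate 4, the highest library, it was -0.064.

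*Mmp9* tracked the osteoclast markers, with a higher r among control-labelled than among mutant-labelled libraries. Over the 10 libraries r was 0.89 (permutation p = 6e-05, adjusted 0.00021) and rho 0.79 (p = 0.00949). Within the control-labelled libraries alone r was 0.90, and within the mutant-labelled ones 0.61. Without control replicates 1 and 4 r was 0.87, and after subtracting group means it was 0.86. *Mmp14*, another protease that osteoclasts make, gave r = 0.30 with the same score (permutation p = 0.413), rho = 0.36 (p = 0.312) and 0.41 without those libraries. Libraries of one study share tissue dissection and depth, so these are relations between transcript levels in whole tissue.

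*Mmp2* (chr8:92827291-92853420), which cuts gelatin and type IV collagen and is made by fibroblasts, had 575.3, 577.4, 490.2, 544.7 and 530.7 CPM in control-labelled libraries. In mutant-labelled libraries it had 556.9, 415.3, 568.8, 563.4 and 603.3 CPM. Mutant replicate 2, the library with high neuronal markers, was the lowest of all 10. The log2 fold change was -0.01 (95% interval -0.22 to 0.20, edgeR adjusted p = 0.994). *Mmp14* (chr14:54431612-54445364), the membrane-type protease that activates pro-MMP2, had 645.5, 631.6, 597.2, 659.2 and 653.1 CPM in controls and 616.0, 510.3, 666.7, 602.6 and 647.7 CPM in mutants. Its log2 fold change was -0.07 (95% interval -0.23 to 0.10, edgeR adjusted p = 0.873). Mutant replicate 2 was lowest for this gene as well. Thus the activator, its substrate *Mmp2* and the cofactor *Timp2* each had an interval within 0.23 log2 units of 0.

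**Figure D4:**
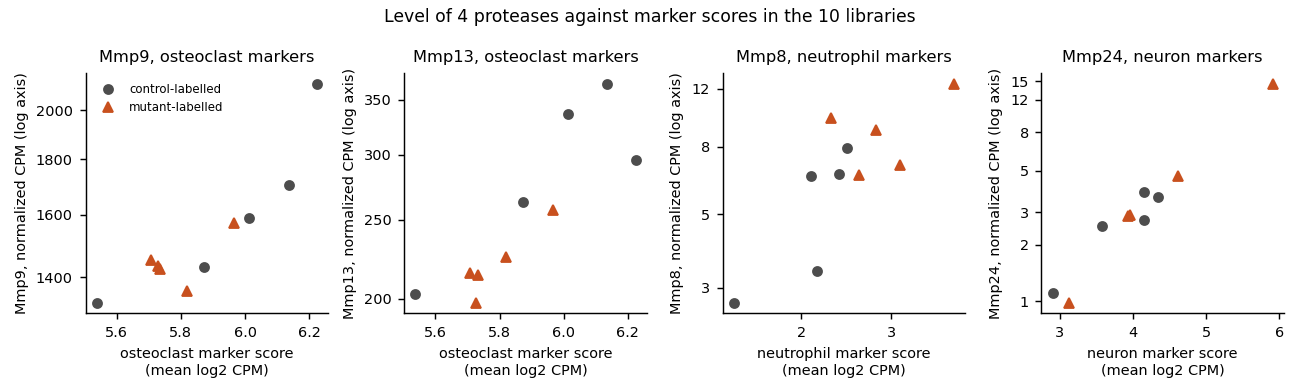
Normalized CPM (log axis) of *Mmp9*, *Mmp13*, *Mmp8* and *Mmp24* against the mean log2 CPM of a marker list in each of the 10 libraries, control-labelled (circles) and mutant-labelled (triangles). *Mmp9* and *Mmp13* go with the osteoclast score (r = 0.89 and 0.87), *Mmp8* with the neutrophil score (r = 0.80, 0.38 without its 2 farthest libraries), and *Mmp24* with the neuron score (r = 0.98), where mutant replicate 2 is the point at the upper right.

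The other membrane-type MMPs were low. *Mmp15* and *Mmp16*, which like *Mmp14* span the membrane, had 33.7 ± 1.80 and 46.9 ± 3.87 CPM in controls and log2 fold changes of -0.04 each. *Mmp16* had r = 0.61 with the osteoblast score (permutation p = 0.0675, adjusted 0.0788), rho = 0.54 (p = 0.114) and 0.27 without its 2 farthest libraries, but 0.76 after subtracting group means. *Mmp17* and *Mmp25*, which are held by a lipid anchor, had 5.44 ± 0.954 and 1.395 ± 0.305 CPM in controls, with log2 fold changes of 0.39 and 0.40 (unadjusted edgeR p = 0.0612 and 0.092, exact permutation p = 0.0952 and 0.119). All 5 mutant-labelled libraries were above the control median for both genes. For *Mmp17* mutant replicate 2, rich in neuronal markers, had 10.4 CPM and the other mutant-labelled libraries 5.62 to 7.37 CPM, and without it the log2 fold change was 0.21.

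*Mmp24*, a membrane-type MMP known from neurons, had the largest estimate of all members, at 0.91 (SE 0.584, 95% interval -0.36 to 2.19, unadjusted edgeR p = 0.145, exact permutation p = 0.5). It came from 1 library. *Mmp24* was at 14.5 CPM in mutant replicate 2 and between 0.984 and 4.68 CPM in the other 9, and without that library the log2 fold change was 0.053. Its relation to the neuron score was r = 0.98 (permutation p = 2e-05, adjusted 0.00014) and rho = 0.89 (p = 0.00098). It was 0.92 without mutant replicate 2 and control replicate 4, and 0.98 after subtracting group means. This pair was chosen after the values were seen.

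The 4 remaining MMPs that could be tested had log2 fold changes of -0.18 to 0.06. They were *Mmp11*, *Mmp19*, *Mmp23* and *Mmp28*, at 16.4, 6.29, 20.8 and 12.1 CPM in controls. *Mmp3*, stromelysin 1, had 0 to 5 counts per library and was not tested. Of the exon bases, 22.3% of *Mmp19*, 13.6% of *Mmp24*, 12% of *Mmp28* and 5.58% of *Mmp11* lie opposite exons of another gene, with the same uncertainty as for *Timp3*.

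Among the ADAMTS proteases, all 3 members at an unadjusted p under 0.05 were higher in mutant-labelled libraries. *Adamts7* (chr9:90163069-90208071) cuts cartilage oligomeric matrix protein (COMP). It had 15.5, 14.6, 13.3, 13.2 and 15.3 CPM in control-labelled and 20.1, 14.9, 18.0, 21.8 and 17.2 CPM in mutant-labelled libraries. Of the latter 4 were above all controls, and replicate 2 was among them. The log2 fold change was 0.35 (SE 0.100, 95% interval 0.14 to 0.57), with an unadjusted edgeR p of 0.00424, the lowest of the members, an adjusted p of 0.411 and an exact permutation p of 0.0238. *Adamts12*, the other protease known to cut COMP, did not share this difference in estimate, with 152.3 CPM in either group and a log2 fold change of 0.00 (95% interval -0.21 to 0.21). Their difference was not tested.

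*Adamts8* (chr9:30942562-30963838), an aggrecan-cleaving protease, had 10.2, 15.5, 8.04, 7.56 and 8.24 CPM in control-labelled libraries and 16.1, 9.58, 15.6, 17.2 and 19.2 CPM in mutant-labelled ones. Again 4 of 5 mutant-labelled libraries were above all controls and replicate 2 was not, while control replicate 2 was the highest control. The log2 fold change was 0.65 (SE 0.220, 95% interval 0.16 to 1.13, unadjusted edgeR p = 0.0131, adjusted p = 0.544, exact permutation p = 0.0397). The antisense gene *Gm29724* covers 10.6% of its exon bases. For *Adamts7*, *Adamts8*, *Mmp13* and *Timp1*, the unadjusted p was under 0.05 in each of the 10 fits with 1 library left out.

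*Adamts20* (chr15:94270163-94465418) is known for its part in the migration of pigment cells from the neural crest and cuts versican. Control-labelled libraries had 1.70, 2.68, 0.808, 1.80 and 1.61 CPM, and mutant-labelled libraries had 5.06, 3.58, 1.498, 2.55 and 2.56 CPM. Only mutant replicates 1 and 2 were above all controls. These are the mutant-labelled libraries with the most skeletal muscle (660.4 CPM) and neuronal (413.4 CPM) marker RNA, and control replicate 2, the highest control, is the one with 667.3 CPM of muscle markers; the part of these markers was not tested. The log2 fold change was 0.82 (SE 0.343, 95% interval 0.07 to 1.57, unadjusted edgeR p = 0.0351, adjusted p = 0.645, exact permutation p = 0.103) on 19 to 109 counts per library. The unadjusted p was above 0.05 without control replicate 1 (0.0572), 3 (0.0688), 4 (0.054) or 5 (0.0618) and without mutant replicate 1 (0.107) or 2 (0.0641).

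Of the 4 markers of fontanelle connective tissue none passed the adjusted threshold. All 4 had higher estimates in mutant-labelled libraries at an unadjusted p under 0.05 (median log2 fold change 0.47), and their sum was 148.3 to 179.2 CPM in controls and 199.4 to 277.6 CPM in mutants, lowest there in replicate 2. The lowest of them, *Scx*, had 6.003 ± 1.43 and 7.67 ± 0.754 CPM. Of 6 cartilage markers, *Col2a1* was higher and *Col10a1* lower (log2 fold change -0.56) at an unadjusted p under 0.05, and *Sox9* had -0.01. Their sum, most of it *Acan* and *Col2a1*, was 275.6 to 343.9 CPM in controls and 358.1 to 403.2 CPM in mutants, while their mean log2 CPM overlapped (3.77 to 4.35 and 3.84 to 4.82). The part of these markers in the *Adamts7*, *Adamts8* and *Adamts20* differences was not tested.

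The other proteoglycan-cleaving members had small estimates below 0. *Adamts1* (chr16:85793827-85803113) had 58.6, 60.5, 41.6, 49.1 and 52.9 CPM in control-labelled and 58.7, 41.9, 54.5, 43.5 and 53.6 CPM in mutant-labelled libraries, which lie wholly within the control range. The neighbouring *Adamts5* (chr16:85856173-85901828), the main aggrecanase of mouse cartilage, had 59.5, 55.9, 53.3, 62.2 and 67.2 CPM in controls and 67.9, 46.5, 56.4, 52.7 and 54.6 CPM in mutants. The log2 fold changes were -0.06 (95% interval -0.32 to 0.20) and -0.10 (95% interval -0.31 to 0.11). For *Adamts5* the estimate was -0.17 without mutant replicate 1 (edgeR adjusted p = 0.645, unadjusted 0.048) and -0.037 without mutant replicate 2. *Adamts4*, *Adamts9* and *Adamts15* had log2 fold changes of -0.04, -0.12 and -0.04. Over the 7 tested genes of this class the median was -0.04, with 2 estimates higher and 5 lower.

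The procollagen N-propeptidases, which trim fibrillar procollagens before they assemble, gave estimates near 0. *Adamts2* (chr11:50602084-50807573) had 281.6, 284.5, 254.9, 264.8 and 260.7 CPM in control-labelled and 263.0, 230.5, 324.5, 264.1 and 292.0 CPM in mutant-labelled libraries. Its log2 fold change was 0.03 (95% interval -0.16 to 0.21), with mutant replicates 2 and 3 as the lowest and the highest library. *Adamts3* and *Adamts14* had log2 fold changes of 0.05 and -0.07.

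Of the 5 tested ADAMTS proteases outside these classes, *Adamts6*, *Adamts10* and *Adamts17* belong with the fibrillin-associated proteases. Their log2 fold changes were 0.08, 0.10 and -0.05. *Adamts18* had -0.19, with 4 of 5 mutant-labelled libraries below all controls and replicate 5 above all of them (unadjusted edgeR p = 0.167, exact permutation p = 0.175). For *Adamts16* the estimate of 0.69 came from mutant replicate 1, at 3.62 CPM against 0.437 to 0.995 CPM in the other 9 libraries, and without it the sign turned (-0.30). *Adamts13*, which cuts von Willebrand factor, had 1 to 8 counts and *Adamts19* 2 to 58 counts per library.

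Beyond the members, 35 genes that activate, bind or inhibit these proteases or are close relatives of them were followed as a list, of which 33 were tested. At an unadjusted p under 0.05, 3 of these 33 were higher and 4 of 33 lower, beside 598 (3.68%) and 621 (3.82%) of 16267 genes tested. None passed the adjusted threshold, and the median log2 fold change was -0.05. *Pcolce2*, an enhancer of procollagen C-propeptide removal, had 9.06 to 10.6 CPM in control-labelled and 5.64 to 8.35 CPM in mutant-labelled libraries without overlap (log2 fold change -0.57, SE 0.111, edgeR adjusted p = 0.184). *Pcsk5*, a convertase that cuts propeptides, had 58.0 ± 4.40 against 76.3 ± 10.38 CPM (log2 fold change 0.40, edgeR adjusted p = 0.307). *Serpine2*, protease nexin 1, an inhibitor of thrombin and plasminogen activators, had a log2 fold change of -0.36 (edgeR adjusted p = 0.350). *Reck*, a membrane-bound MMP inhibitor, had 0.18 (adjusted p = 0.669).

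At an unadjusted p under 0.05, 2 of 20 matrix substrates were higher and 1 of 20 lower, beside 598 (3.68%) and 621 (3.82%) of 16267 genes tested. Their median log2 fold change was 0.07. *Col2a1*, type II collagen, was 47.3 to 68.5 CPM in control-labelled and 70.7 to 153.1 CPM in mutant-labelled libraries (log2 fold change 0.88, SE 0.200, edgeR adjusted p = 0.302). Its highest values were 153.1 CPM in mutant replicate 2, rich in neuronal markers, and 123.2 CPM in mutant replicate 1, rich in muscle markers. The other mutant-labelled libraries had 70.7 to 94.8 CPM, and the part of these markers was not tested. *Fbn2*, a fibrillin of embryonic microfibrils, had 276.7 ± 38.5 against 381.3 ± 82.0 CPM (log2 fold change 0.46, edgeR adjusted p = 0.454), with overlapping groups. Mutant replicate 1 had 519.9 CPM of it, and the other mutant-labelled libraries had 304.9 to 374.4 CPM. *Tnc*, tenascin C, had a log2 fold change of -0.25 (adjusted p = 0.595). The proteoglycan substrates *Acan* and *Vcan* had 0.15 and -0.10, and *Comp* had 1.63 ± 0.177 and 1.88 ± 0.730 CPM.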

How the data were processed

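Libraries of AF tissue from E18.5 embryos (5 per group, read length 50) were made with a stranded kit, per the labels. The authors deposited estimated counts per gene, unscaled between libraries. The submitters' processing notes name Partek and mm10; aligner, counter and strand setting are not given in the sources used here. Genes summing below 10.0 over the libraries are absent from the table. Estimated counts were rounded, filtered (edgeR filterByExpr, 16267 tested, 6813 not) and TMM-normalized. Groups were compared by the quasi-likelihood test of edgeR 4.0.16 in R 4.3.3 with no covariate and Benjamini-Hochberg adjustment over all genes tested at 0.05. Unadjusted thresholds are 0.05 too. DESeq2 1.42.0 and limma 3.58.1 voom were alternatives. Single members were also tested by two-sided exact permutation of mean log2 CPM over 252 groupings (smallest p 0.00794). Relations used 100000 permutations.

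Exon lengths, positions and sequences came from GENCODE M21 (GRCm38), which held all 38 members; 22296 of 22533 shared symbols had the same start and end as the table. Library totals limit precision for low genes, and the common biological coefficient of variation was 18.9%. Counts were simulated for these 16267 genes, independently for each library, with 100 genes changed by each size named next. There edgeR recovered 39% of genes changed by 0.5 log2 units and 77% of those changed by 1. The simulation had no shared differences in muscle or neuronal RNA, and only 3 genes passed in the libraries themselves. These shares therefore need not hold for the libraries. The study describes the libraries as littermate pairs, but neither it nor the labels say which libraries form a pair. No litter term was therefore fitted in the main test, and litter differences stay in the spread against which the groups were compared.

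Members and gene lists were chosen with earlier results of these data known. Named with values in every library were the 4 TIMPs, members with an unadjusted p under 0.05, the 8 with the highest control level per kilobase, and *Mmp2*, *Mmp9*, *Mmp13*, *Mmp14*, *Adamts1* and *Adamts5*. From the lists of protease partners and substrates, up to 6 by p were to be named, of which 1 is not reported here; *Reck*, *Tnc*, *Acan*, *Vcan* and *Comp* were added for their roles. *Mmp24*, *Adamts16*, *Mmp17* and others were described after their values were seen. The planned relation of *Mmp12* with macrophage markers was not analysed here. The table also listed macrophage, endothelial and meningeal markers, whose median log2 fold changes were -0.14, 0.01 and -0.05. Alternatives were other normalizations, tests and filters, the replicate number as a block, *Xist* as a covariate, removal of *Lars2* and the ribosomal RNA genes, and leaving out each library.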

Additional observations from a re-analysis of the deposited data

Results flagged for a closer look

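In each of 70 groups of 5 libraries (35 members, both labels), the highest or lowest log2 CPM was compared with the rest by Dixon's criterion, the gap to the nearest library over the whole range, with a critical value of 0.71. Chance alone marks about 1 group in 20, or 3.5 of 70, and 3 were marked. *Mmp2* in mutant replicate 2 (ratio 0.785) had 415.3 CPM, against 556.9 to 603.3 CPM in the other mutant-labelled libraries. *Adamts16* in mutant replicate 1 (ratio 0.763) had 3.62 CPM, against 0.437 to 0.728 CPM. *Adamts14* in control replicate 5 (ratio 0.757) had 43.9 CPM, against 54.1 to 57.9 CPM in the other controls.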

How the results depend on the processing

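No member passed the adjusted threshold under any of 9 other settings or in the 10 fits with 1 library left out; at unadjusted p under 0.05, the main count of 7 became 5 to 8 under both, beside 5.95% to 7.64% and 5.19% to 8.34% of all genes. Over all genes, the 3 calls became 1 by library size alone, 1 with the replicate block, 1 with *Xist* as a covariate, 95 with DESeq2's Wald test, and 1 to 6 with 1 library left out (6 without mutant replicate 2). The cause was not tested. Same-numbered libraries correlated at -0.203, 0.139, -0.211, 0.027 and -0.142 in their deviations from group means, and 0 of 5 controls correlated best with its own number. Differences in dissection can hide a shared litter in such correlations, so they do not settle whether equal numbers mark pairs. With the block 8 members, and 6.61% of all genes, had an unadjusted p under 0.05. The median of the TIMPs was -0.160 with at least 10 counts in every library, which leaves out *Timp4*, and -0.167 to -0.035 with 1 library left out. Near 0, signs turned. *Mmp2* became 0.002 with DESeq2's size factors, 0.0014 with DESeq2, 0.042 with voom and 0.0021 under the stricter filter (left out in turn, -0.047 to 0.082). *Adamts2* became -0.02 and *Timp2* -0.032 by library size alone (-0.029 to 0.092 and -0.02 to 0.075). *Timp4* became 0.19 with voom and 0.088 with the block (-0.18 to 0.34). *Adamts1* ran from -0.12 to 0.0048 and *Adamts16* from -0.30 to 0.91. *Mmp13*, *Mmp8*, *Timp1*, *Timp3*, *Adamts7*, *Adamts8* and *Adamts20* kept their direction under all settings run; *Timp3* missed an unadjusted p of 0.05 by library size alone (0.0622) and with voom (0.0742), and *Adamts20* with voom (0.062). *Mmp17* had an unadjusted p under 0.05 with the block (0.011) and with DESeq2's Wald test (0.0484), the settings with 8 such members. Members under a few CPM are limited by depth.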

Other observations

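The 3 ADAMTS proteases with the lowest detected levels besides *Adamts13* each had their highest value in mutant replicate 1. *Adamts20* was at 5.06 CPM there, *Adamts16* at 3.62 CPM and *Adamts19* at 2.69 CPM (58 counts). In the other 9 libraries *Adamts19* was between 0.0850 and 0.617 CPM. Mutant replicate 1 also had 660.4 CPM of summed skeletal muscle markers. Control replicate 2, with 667.3 CPM of them, had the highest control value of each gene (2.68 CPM of *Adamts20*, 0.995 CPM of *Adamts16* and 0.617 CPM of *Adamts19*). These genes were singled out after their values were seen, and the pattern was not tested.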
